A study of Mus musculus with 2 samples.

Results

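Smooth muscle nuclei of mouse mesenteric perivascular fat are described here from single-nucleus RNA counts. They were chosen by 4 genes of the contractile programme, namely Myh11 (smooth muscle myosin heavy chain), Acta2 (smooth muscle alpha actin), Lmod1 (leiomodin, which starts actin filaments) and Myocd (myocardin, the cofactor that switches on smooth muscle genes with serum response factor). A nucleus needed at least 500 unique molecular identifiers (UMIs, each standing for 1 captured RNA molecule) and under 5% mitochondrial UMIs. The 4 genes had to give at least 4 UMIs over 2 or more genes and at least 8 per 10000 UMIs, and this sum had to exceed that of the pericyte genes Abcc9, Notch3, Pdgfrb and Rgs5. At most 2 UMIs of Flt1, Mrc1 and F13a1, which mark endothelial cells and macrophages, were allowed. This found 86 smooth muscle nuclei among 19480 kept nuclei, a share of 0.441%. The values that chose them, and their levels against other nuclei, are descriptions of the same counts and carry no test.

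The tissue was dissected from mice aged 11 weeks, frozen, and its nuclei were purified and sequenced with the 10x 3 prime kit v3.1. There were 2 libraries and no replicate of either genotype. The library labelled Prdm16 cKO came from Prdm16flox mice that also carried Cre under the Adipoq promoter (spelled AdopiQCre+ in its label), and the flox control library came from Prdm16flox mice, so both groups carried the floxed alleles. The Adipoq promoter is active in adipocytes, so smooth muscle is not the cell in which the Cre is meant to act. How many animals went into a library is not given in the labels. The series title speaks of thoracic and abdominal fat and its design of total RNA. Both sample labels name mesenteric fat and nuclear RNA, and these labels were followed.

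Smooth muscle cells form the contractile wall of arteries and veins and also the muscle layers of the gut. They shorten when calcium activates myosin light chain kinase, and they relax when nitric oxide and cyclic GMP lower calcium or switch on myosin phosphatase. In small arteries such as those of the mesentery, noradrenaline, ATP and angiotensin II set this tone. Pericytes are their neighbours in the vessel wall and sit on capillaries, with little contractile apparatus.

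The Prdm16 cKO library gave 26 smooth muscle nuclei (0.330% of its 7869 kept nuclei, exact 95% interval 0.216 to 0.484%) and the flox control library gave 60 (0.517% of 11611, 0.395 to 0.665%). With 0 UMIs of Flt1, Mrc1 and F13a1 required, the shares were 0.191% in the Prdm16 cKO and 0.215% in the flox control library. These intervals, and all others given here, cover counting error only and not differences between animals. The nuclei held 118119 UMIs in the Prdm16 cKO library and 440975 in the flox control library, with medians of 3228.5 and 5867.5 UMIs per nucleus. The shallower Prdm16 cKO nuclei had a median of 18 marker UMIs, against 34 in flox control nuclei, or 48.7 and 62.2 per 10000 UMIs. The part of depth in the number of nuclei found was not tested. The libraries shared 28 barcodes, of which 0 were smooth muscle nuclei of the Prdm16 cKO library and 1 was a smooth muscle nucleus of the flox control library.

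**Figure D1:**
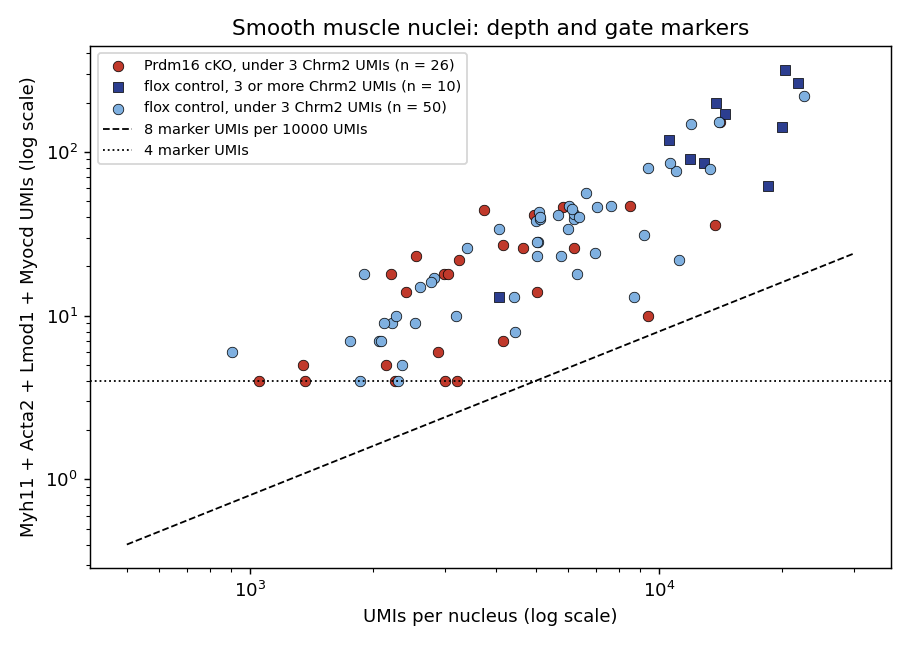
UMIs of the 4 gate genes against all UMIs, 1 point per smooth muscle nucleus, both on log scales. Points are coloured by library and by Chrm2, and the dashed and dotted lines are the limits of 8 marker UMIs per 10000 and of 4 marker UMIs. Most nuclei lie well above both limits, and the 10 nuclei with 3 or more Chrm2 UMIs are mostly among the deepest.

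All 4 gate genes were found in 47 of the 86 nuclei, 3 of them in 22 and 2 in 17. The marker sum ran from 4 UMIs through a median of 26 to 318, and 50 nuclei had 20 or more. Close to the limits, 10 nuclei had 4 or 5 marker UMIs, and 3 further nuclei with 3 marker UMIs were left out. Another 13 nuclei (1 of the Prdm16 cKO library and 12 of the flox control library) met all other conditions but had 3 or more UMIs of Flt1, Mrc1 and F13a1. Of the 86 nuclei, 40 had none of these UMIs and 46 had 1 or 2. The label was checked against 10 smooth muscle genes outside the gate, and all 10 were found, with a summed level of 49.9 per 10000 UMIs in smooth muscle nuclei, 6.09 in pericyte nuclei and 1.01 in lymphocyte nuclei. Lymphocyte nuclei serve below as a class that should lack muscle genes. Their median depth was 4499 UMIs, against 5040 in smooth muscle nuclei and 4714 in pericyte nuclei.

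Many contractile genes carry a CArG box before their start, the letters bound by serum response factor, to which myocardin attaches. The box is a pair of C, then 6 letters that are each A or T, then a pair of G. This pattern is met on both strands at once, though the letters of a given box can differ between them. Stretches around such boxes are shown for 5 genes of the contractile apparatus, because this is the sequence through which Myocd, a gate gene, is known to act. They are from RefSeq on GRCm38.p6, 5′ to 3′ on the strand of the gene, with the box in capitals. Dmd, which encodes dystrophin, has a box 98 bases before its start (chrX:82948742-82948811, plus strand). Ldb3, a protein of actin anchoring structures, has a box at 35 bases (chr14:34588682-34588746, minus strand). The same Ldb3 box lies 109 bases before another listed start of that gene. Myl9, the regulatory light chain that the kinase phosphorylates, has a box at 161 bases (chr2:156775273-156775342, plus strand). Vcl, which encodes vinculin, has a box at 227 bases (chr14:20929148-20929210, plus strand). Acta2 has no full box in this window but has 2 that are 1 letter off, with a C or G among the A and T letters, at 84 and 34 bases (chr19:34255374-34255487, minus strand).
Dmd: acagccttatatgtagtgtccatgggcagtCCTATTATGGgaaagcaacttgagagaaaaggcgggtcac
Ldb3: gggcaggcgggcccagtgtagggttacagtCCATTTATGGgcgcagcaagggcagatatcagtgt
Myl9: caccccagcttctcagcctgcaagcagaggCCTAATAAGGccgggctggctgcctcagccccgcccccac
Vcl: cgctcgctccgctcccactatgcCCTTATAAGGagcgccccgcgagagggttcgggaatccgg
Acta2: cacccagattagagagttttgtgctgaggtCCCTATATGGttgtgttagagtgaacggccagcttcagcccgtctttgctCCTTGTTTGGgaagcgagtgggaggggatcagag

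Contractile, calcium store and receptor genes were among those with the largest ratios of smooth muscle over pericyte nuclei. The 116 pericyte nuclei (48 of the Prdm16 cKO library and 68 of the flox control library) were chosen by the mirror image of the gate. A gene was called at a ratio of 4 or more between CPM (summed UMIs of a gene per 1000000 summed UMIs) of the pooled libraries and 2 or more within each library, with any count under 3 on the low side set to 3. This floor also set the order of genes and the list medians, while log2 ratios printed with an interval are of the counts as they stand. Of 7549 genes with 20 or more UMIs, 195 were called higher in smooth muscle nuclei (2.58%) and 117 lower (1.55%). The counts were 278 and 182 without the Prdm16 cKO library and 119 and 89 without the flox control library. With the 40 nuclei that had 0 UMIs of Flt1, Mrc1 and F13a1 they were 150 and 50. A full CArG box stood in the 250 bases before the start of 12 of the 158 higher genes with a listed promoter (7.59%) and 4 of the 86 lower genes (4.65%). Among all 5948 tested genes with a promoter it stood in 92 (1.55%), and among all 27025 listed genes in 1.62%. With boxes 1 letter off included, the shares were 15.8% of higher genes, 12.8% of lower genes and 9.38% of tested genes. Of the contractile list below, 5 of 20 promoters held a full box, namely those of Dmd, Ldb3, Myl6, Myl9 and Vcl. A match is a stretch of letters and shows neither binding nor a cause.

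With the floor of 3 counts, the genes with the highest ratios over pericyte nuclei began with Hpse2 (heparanase 2, a secreted protein that binds heparan sulfate). Hpse2 had 110 UMIs in Prdm16 cKO and 752 in flox control smooth muscle nuclei, against 0 and 3 in the pericyte nuclei of the same libraries. Its level was 1542 CPM in smooth muscle and 4.29 CPM in pericyte nuclei, a log2 ratio of 8.49 (95% interval 6.94 to 10.77). It was found in 61.6% of smooth muscle, 2.59% of pericyte and 3.55% of lymphocyte nuclei, and after each nucleus was thinned to 1000 UMIs in 44.7%, 0% and 0.451%. Col19a1, a collagen of basement membrane zones, had 120 and 238 UMIs in Prdm16 cKO and flox control smooth muscle nuclei and 1 and 0 in pericyte nuclei (log2 ratio 8.81, 6.32 to 14.11, or 7.22 with the floor). Both genes were thus seen in muscle nuclei of each library and almost never in pericytes. Myom1 (myomesin, a filament crosslinker better known from striated muscle) reached 1234 CPM in smooth muscle and 27.2 CPM in pericyte nuclei, and Sorbs2, an adaptor of actin attachment sites, 3023 CPM in smooth muscle and 78.7 CPM in pericyte nuclei. Dgkg, a diacylglycerol kinase, had 165 CPM in smooth muscle and 2.86 CPM in pericyte nuclei. Pdlim3 and Pgm5, proteins of actin anchoring sites, had log2 ratios of 5.21 and 5.17. Pgm5 owed 347 of its 462 smooth muscle UMIs to the 10 nuclei with Chrm2 described further on. Without those nuclei its log2 ratio was 3.61. Cacnb2 and Tpm1, given below, also drew a large part of their UMIs from these 10 nuclei, with 225 and 93 in 1 of them.

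Of the 12 gene lists, contractile filaments had the largest share of genes above pericyte level: of its 22 genes, all measured, 20 were at least 2 times higher in smooth muscle than in pericyte nuclei and 0 were 2 times lower, with a median log2 ratio of 3.25. Over all 7549 genes tested, 634 were 2 times higher (8.4%), 878 were 2 times lower (11.6%), and the median was -0.18. Tagln (transgelin, an actin binding protein) had 39 UMIs in Prdm16 cKO and 76 in flox control smooth muscle nuclei, against 3 and 1 in pericyte nuclei. It was found in 54.7% of smooth muscle, 3.45% of pericyte and 1.46% of lymphocyte nuclei. Tpm1, a tropomyosin, had 160 and 1017 UMIs in smooth muscle nuclei and 32 and 37 in pericyte nuclei (log2 ratio 4.41, 4.06 to 4.79). Dmd, which links actin to the membrane, had 788 and 4069 UMIs in smooth muscle nuclei and 314 and 291 in pericyte nuclei, or 8687 CPM in smooth muscle and 865 CPM in pericyte nuclei. Cnn1 (calponin) was found in 24 smooth muscle nuclei and 0 pericyte nuclei, and was at least 15.8-fold higher, taking 3 UMIs over the pericyte group as the floor. The genes short of 2 times were Vcl (log2 ratio 0.88) and Tns1 (tensin, log2 ratio 0.24). Without the Chrm2 nuclei, 19 of 21 measured genes were 2 times higher, with a median of 2.98, beside 7.25% of all genes tested.

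**Figure D2:**
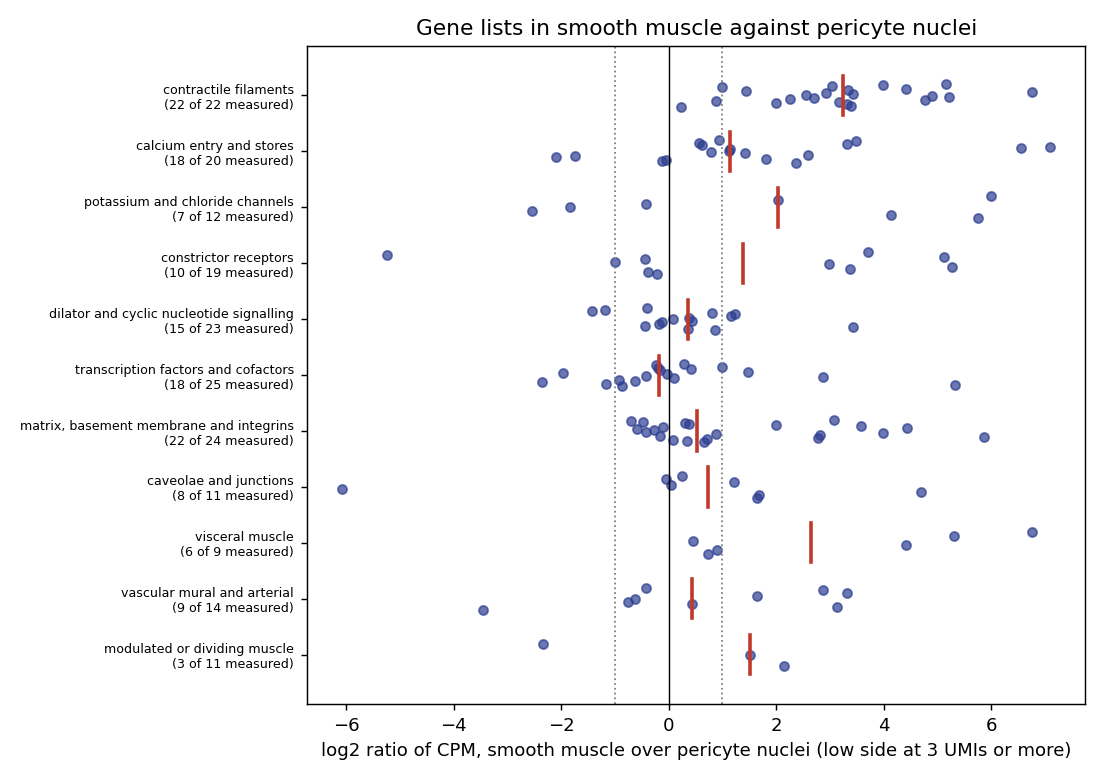
Log2 ratio of CPM in smooth muscle over pericyte nuclei, 1 point per gene and 1 row per gene list, with the list's median as a red bar. Counts under 3 UMIs on the low side were set to 3, and dotted lines mark 2 times higher and lower. The contractile filament points lie almost wholly right of the 2 times line, while most other lists spread over both sides of 0.

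Genes that set the phosphorylation of myosin were also measured. Mylk, the myosin light chain kinase, had 79 UMIs in Prdm16 cKO and 476 in flox control smooth muscle nuclei, against 35 and 69 in pericyte nuclei (log2 ratio 2.74, 2.43 to 3.05). Ppp1r12b, a targeting subunit of myosin phosphatase, had a log2 ratio of 1.66. Ppp1r14a (CPI-17, an inhibitor of that phosphatase) was found in 19 nuclei and had a log2 ratio of 3.08. Prkca, a kinase that acts on this inhibitor, was at 252 CPM in smooth muscle and 499 CPM in pericyte nuclei.

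Among genes of calcium entry and stores, 10 of 18 measured were 2 times higher, 2 were lower, and the median log2 ratio was 1.13. Without the flox control library 5 were higher. Without the Chrm2 nuclei 6 of 15 were higher, 3 were lower, and the median was 0.84. Ryr2, a calcium release channel of the internal store, had 106 UMIs in Prdm16 cKO and 552 in flox control smooth muscle nuclei, against 3 and 3 in pericyte nuclei (log2 ratio 7.10, 5.97 to 8.55). It was found in 77.9% of smooth muscle, 3.45% of pericyte and 4.22% of lymphocyte nuclei. Cacnb2, the accessory subunit of the L-type calcium channel, was at 3502 CPM in smooth muscle and 310 CPM in pericyte nuclei, whereas Cacna1c, its pore, was nearer, at 4071 CPM in smooth muscle and 2130 CPM in pericyte nuclei. Slc8a1, the sodium and calcium exchanger, had a log2 ratio of 2.60. Trpc6, a receptor-operated channel, had a log2 ratio of -2.09.

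For potassium and chloride channels, 4 of 7 measured genes were 2 times higher and 2 lower. Kcnma1, the large-conductance calcium-activated potassium channel that limits constriction, had 136 and 893 UMIs in Prdm16 cKO and flox control smooth muscle nuclei and 5 and 15 in pericyte nuclei (log2 ratio 6.01, 5.37 to 6.73). Kcnmb1, its smooth muscle subunit, had 18 UMIs in smooth muscle and 0 in pericyte nuclei, under the 20 UMIs required. Kcnab1, a subunit of voltage-gated potassium channels, was at 3137 CPM in smooth muscle and 177 CPM in pericyte nuclei. Kcnq5, a voltage-gated potassium channel, was at 476 CPM in smooth muscle and 1702 CPM in pericyte nuclei. Ano1, the calcium-activated chloride channel, was at 118 CPM in smooth muscle and 687 CPM in pericyte nuclei. Kcnip4, which binds voltage-gated potassium channels, owed 210 of its 216 UMIs to a single nucleus.

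Of the receptors for constrictors, Agtr1b and Agtr1a went opposite ways between smooth muscle and pericyte nuclei. Agtr1b, an angiotensin II receptor, had 30 UMIs in Prdm16 cKO and 54 in flox control smooth muscle nuclei, and 0 and 0 in pericyte nuclei, so it was at least 35-fold higher. Agtr1a, the related receptor for the same hormone, had 0 and 6 UMIs in smooth muscle nuclei against 116 and 169 in pericyte nuclei (log2 ratio -5.25, -6.71 to -4.11). Agtr1b was found in 30.2% of smooth muscle, 0% of pericyte and 0.282% of lymphocyte nuclei, and Agtr1a in 3.49% of smooth muscle, 67.2% of pericyte and 3.77% of lymphocyte nuclei. The share of smooth muscle nuclei with Agtr1a was thus no higher than that of lymphocytes. Of all kept nuclei with 3 or more Agtr1b UMIs, 5 of 6 in the Prdm16 cKO library and 7 of 10 in the flox control library were smooth muscle nuclei. How reads that fit both related receptors, or both Acta2 and Actg2, were counted is not given in the sources used here.

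Of the 10 measured constrictor receptors, 5 were 2 times higher and 1 was lower, with a median log2 ratio of 1.39. The 5 became 3 without the flox control library, 3 with the nuclei at 0 UMIs of Flt1, Mrc1 and F13a1, and 1 after thinning to 1000 UMIs. Adra1a, the alpha-1A adrenoceptor for noradrenaline, had 28 and 87 UMIs in Prdm16 cKO and flox control smooth muscle nuclei, against 3 and 8 in pericyte nuclei (log2 ratio 3.71, 2.82 to 4.75). P2rx1, the ATP-gated channel of sympathetic constriction, had 24 and 69 UMIs in smooth muscle nuclei, against 1 and 0 in pericyte nuclei (log2 ratio 6.86, 4.35 to 12.18, or 5.28 with the floor). Npy1r, a receptor of neuropeptide Y, had 9 and 24 UMIs in smooth muscle nuclei, against 1 and 3 in pericyte nuclei. Together these are receptors for noradrenaline, ATP and neuropeptide Y, the transmitters released by sympathetic nerves. Htr2a, a serotonin receptor, was found in 10 smooth muscle nuclei. The endothelin receptor Ednra was at 195 CPM in smooth muscle and 265 CPM in pericyte nuclei, and the prostaglandin receptor Ptger3 at 354 CPM in smooth muscle and 459 CPM in pericyte nuclei. Ptger3 was found in 72.1% of smooth muscle and also in 74.5% of lymphocyte nuclei, so its share is not above background.

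**Figure D3:**
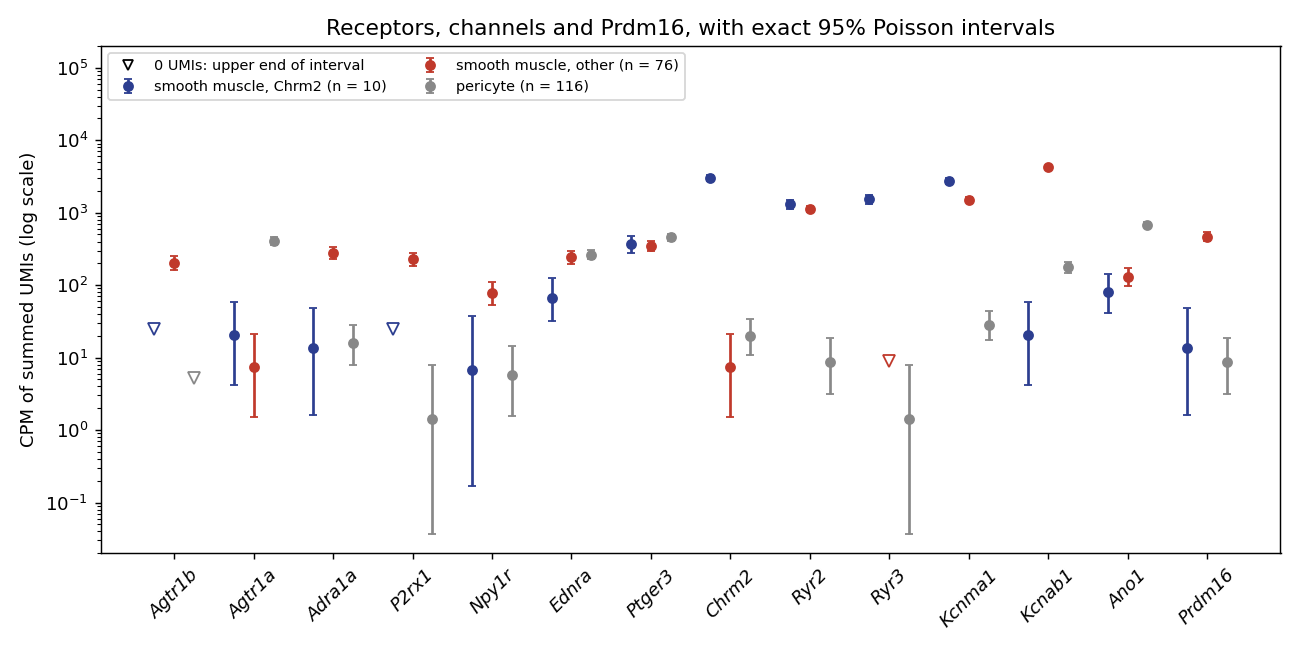
CPM of summed UMIs on a log scale with exact 95% Poisson intervals, for receptors, channels and Prdm16 in the 10 smooth muscle nuclei with 3 or more Chrm2 UMIs, the other 76 smooth muscle nuclei and the 116 pericyte nuclei. Open triangles stand for 0 UMIs, at the upper end of the interval. Agtr1b and Agtr1a lie in opposite order in the 76 nuclei and in pericytes, and of these 3 groups the one chosen by Chrm2 has the highest Chrm2 and Ryr3.

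Genes of dilator and cyclic nucleotide signalling showed no common direction: 3 of 15 measured were 2 times higher, 2 were lower, and the median log2 ratio was 0.35. Without the flox control library 0 were 2 times higher. Pde5a and Pde3a, which break down cyclic nucleotides, had log2 ratios of 1.23 and 1.17. The nitric oxide receptor subunits Gucy1a2 and Gucy1b1 were at 315 and 96.6 CPM in smooth muscle nuclei, against 714 and 259 CPM in pericyte nuclei. Prkg1, the cyclic GMP dependent kinase, was at 6725 CPM in smooth muscle and 3823 CPM in pericyte nuclei.

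Among transcription factors and cofactors, 3 of 18 measured were 2 times higher and 3 lower, with a median log2 ratio of -0.18, equal to that of all genes. Without the flox control library 1 was 2 times higher. Myocd, a gate gene, had 78 UMIs in Prdm16 cKO and 259 in flox control smooth muscle nuclei, against 0 and 1 in pericyte nuclei. Prdm16, the gene that carries the floxed alleles and is best known from brown and beige adipocytes, had 48 and 146 UMIs in smooth muscle nuclei, against 2 and 4 in pericyte nuclei (log2 ratio 5.34, 4.19 to 6.80). Its level was 347 CPM in smooth muscle, 8.58 CPM in pericyte, 136 CPM in endothelial, 22.5 CPM in lymphocyte and 29.1 CPM in all other nuclei. It was found in 59.3% of smooth muscle nuclei, 4.31% of pericyte nuclei and 8.0% of lymphocyte nuclei, and after thinning in 23.5%, 0% and 1.64%. Over all kept nuclei, 245 of 7869 in the Prdm16 cKO library and 314 of 11611 in the flox control library had 3 or more Prdm16 UMIs. Of these, 5 and 22 were smooth muscle nuclei. The exon removed is not given in the labels, so these 3 prime counts do not check the deletion. Ebf2, a factor known from brown fat progenitors, was at 218 CPM in smooth muscle and 1113 CPM in pericyte nuclei (log2 ratio -2.35), and 58.6% of lymphocyte nuclei also had it. Mecom, the gene most related to Prdm16, was at 46.5 CPM in smooth muscle and 84.4 CPM in pericyte nuclei. Hey2, a Notch target of arterial cells, had a log2 ratio of 2.88.

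For matrix, basement membrane and integrins, 8 of 22 measured genes were 2 times higher and 0 were 2 times lower, with a median log2 ratio of 0.53. Eln (elastin) had 139 UMIs in Prdm16 cKO and 374 in flox control smooth muscle nuclei, against 20 and 56 in pericyte nuclei (log2 ratio 3.08, 2.73 to 3.45). Itga8, an integrin subunit that binds nephronectin and fibronectin, had 124 and 341 UMIs in smooth muscle nuclei, against 6 and 4 in pericyte nuclei (log2 ratio 5.86, 4.97 to 6.93). Lama5, a laminin chain of basement membranes, was at 93.0 CPM in smooth muscle and 1.43 CPM in pericyte nuclei. The cadherins went opposite ways. Cdh6 had 26 and 57 UMIs in smooth muscle nuclei against 1 and 3 in pericyte nuclei, while Cdh2 (N-cadherin, which joins pericytes to endothelium) had 0 and 3 in smooth muscle nuclei against 99 and 154 in pericyte nuclei (log2 ratio -6.08). Among caveolae and junction genes, 4 of 8 measured were 2 times higher and 1 was lower. In the vascular mural and arterial list 4 of 9 measured were higher and 1, Kcnj8, the pericyte potassium channel, was lower. With either library left out, 2 genes of the vascular list were higher.

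The genes with the lowest ratios were led by Lin7a, a scaffold protein of cell junctions, with 0 UMIs in Prdm16 cKO and 1 in flox control smooth muscle nuclei, against 148 and 156 in pericyte nuclei (log2 ratio -7.93, -13.23 to -5.44, or -6.34 with the floor). Cdh2 and Agtr1a, given above, followed. Cyp4b1, a cytochrome P450, and Ppfia2, a liprin, had 0 UMIs in all 86 smooth muscle nuclei. Cyp4b1 had 24 UMIs in Prdm16 cKO and 67 in flox control pericyte nuclei and was at least 24.3-fold lower, and Ppfia2 had 37 and 39 and was at least 20.3-fold lower. Without the flox control library the log2 ratios with the floor were -1.53 for Cyp4b1 and -2.16 for Ppfia2. Tnfrsf21, Pde8b, Mapt and Sema5b had 1 or 2 UMIs over all smooth muscle nuclei, and 119, 97, 78 and 75 over pericyte nuclei. Gpr39, a zinc-sensing receptor, had 5 UMIs in smooth muscle and 152 in pericyte nuclei. The other lowest genes also moved when the flox control library was left out. Their log2 ratios with the floor were then -2.34 for Tnfrsf21, -2.16 for Pde8b, -2.30 for Mapt, -1.85 for Sema5b and -2.12 for Gpr39. Those of Cdh2, Agtr1a and Lin7a were -3.57, -3.80 and -4.16.

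Against all 19394 other kept nuclei, 553 of 20064 tested genes were called higher (2.76%). Without the Prdm16 cKO library 1159 were called, and without the flox control library 1003, since a call then needed 4 times in 1 library alone. Of the 195 genes called against pericytes, 169 were among them, which is 86.7% of the 195 and 30.6% of the 553. Susd5 had 27 UMIs in Prdm16 cKO and 46 in flox control smooth muscle nuclei and 37 over all other nuclei, a log2 ratio of 9.28 (8.69 to 9.90). Col19a1, Actg2, Agtr1b, Cnn1, Hpse2 and Ryr2 were again among the 15 highest. Slc6a17, a neutral amino acid transporter known from neurons, was found in 33 smooth muscle nuclei, with 67 UMIs there and 52 in all other nuclei. Olfr78, an olfactory receptor also known from vessels, had 11 and 26 UMIs in Prdm16 cKO and flox control smooth muscle nuclei and was found in 24.4% of them, against 0.0563% of lymphocyte nuclei. Corin, a protease that activates natriuretic peptides, was found in 23 nuclei, Rbm24, a splicing factor, in 24, and Bves (popeye domain protein 1, which binds cyclic AMP) in 13. Dgkb, a diacylglycerol kinase, was at 5255 CPM in smooth muscle and 19.2 CPM in all other nuclei. Atcayos, named as an opposite-strand gene, was found in 18 nuclei, and its reads cannot be told apart from those of its partner, as no source used here says how strand was treated. Cemip, a hyaluronan-degrading protein, completed the 15, and 40 of its 41 UMIs came from the nuclei with Chrm2.

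The smooth muscle nuclei were not uniform. Chrm2, the muscarinic acetylcholine receptor best known from heart and gut muscle, had 12 to 183 UMIs (median 24) in 10 nuclei, while 3 of the other 76 had 1 UMI and 73 had 0. This split was noticed in the counts and is a description only. All 10 nuclei were of the flox control library, 16.7% of its smooth muscle nuclei (8.29 to 28.5%), and the Prdm16 cKO library had 0 of 26 (exact interval 0 to 13.2%, and up to 11.5% by the limit of 3 counts). They were deeper, with a median of 14135 UMIs against 4803.5 in the other 76. Over all kept nuclei, 58 of the Prdm16 cKO library had 3 or more Chrm2 UMIs, 0 of them smooth muscle, and 110 of the flox control library, 10 of them smooth muscle.

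Ryr3, a calcium release channel, had 226 UMIs in the 10 nuclei and 0 in the other 76, and each of the 10 had 3 to 50. Cacna2d3, a calcium channel subunit, had 224 UMIs in the 10 nuclei and 3 in the others. Pcp4, a calmodulin-binding protein, had 51 UMIs in the 10 nuclei and 0 in the others, and Actg2, the gamma actin of gut and other visceral muscle, had 190 in the 10 nuclei and 70 in the others. Pcp4 was found in 6 of the 10 nuclei, and Actg2 in 9 of the 10 and in 31 of the other 76. Dkk2, a Wnt inhibitor, Epha7, an ephrin receptor, and Syndig1 had 83, 76 and 73 UMIs in the 10 nuclei and 0 in the others, found in 5, 5 and 7 nuclei. Of the gate and contractile genes, Myh11 was at 7018 CPM in the 10 nuclei and 3634 CPM in the others. Synpo2 (an actin bundling protein) was at 4849 CPM in the 10 nuclei and 1164 CPM in the others, whereas Lmod1 was at 801 CPM in the 10 nuclei and 809 CPM in the others. The 10 nuclei were not alike, as Myh11 ran from 1 to 266 UMIs among them. The nucleus with 1 Myh11 UMI had 12 Lmod1, 28 Tpm1 and 2 Dmd UMIs, and 0 of Acta2, Myocd, Synpo2 and Actg2.

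The genes that led the other 76 nuclei included those of vessel walls. Notch3, a receptor of vascular mural cells and a gate gene on the pericyte side, had 0 UMIs in the 10 Chrm2 nuclei and 221 in the 76. Abcc9, another gate gene on that side, went the other way, with up to 20 UMIs in 1 of the 10 nuclei and at most 4 in any of the 76. The 4 pericyte gate genes together were at 4.85 per 10000 UMIs in the 10 nuclei and 7.67 in the 76. Kcnab1 had 3 UMIs in the 10 nuclei and 1751 in the 76, and Eln had 6 in the 10 nuclei and 507 in the 76. Prdm16 had 2 UMIs in the 10 nuclei and 192 in the 76, or 13.5 CPM in the 10 and 468 CPM in the 76. Agtr1b, P2rx1 and Col19a1 had 0 UMIs in the 10 nuclei and 84, 93 and 358 in the 76. Ntrk3, a neurotrophin receptor, had 2 UMIs in the 10 nuclei and 480 in the 76. Prdm16 in the 76 nuclei had 48 of 118119 UMIs in the Prdm16 cKO library and 144 of 292492 in the flox control library. Without the Chrm2 nuclei, 188 genes were called higher than in pericytes and 122 lower.

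**Figure D4:**
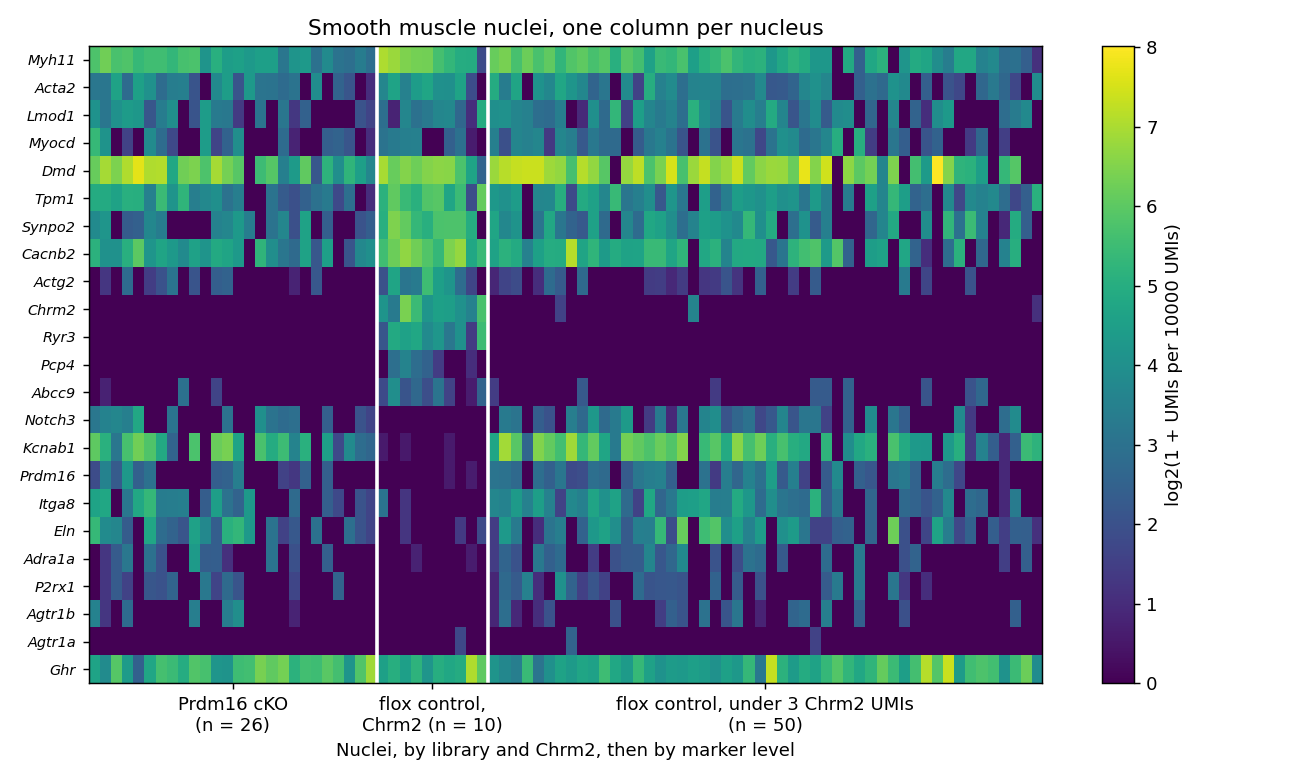
Level of 23 genes in each of the 86 smooth muscle nuclei, 1 column per nucleus, as log2(1 + UMIs per 10000 UMIs). White lines part the 26 Prdm16 cKO nuclei, the 10 flox control nuclei with 3 or more Chrm2 UMIs and the other 50 flox control nuclei, each ordered by marker level. All 10 nuclei of the middle block have Chrm2 and Ryr3, 6 have Pcp4 and none has Notch3. Notch3 is found in 14 of the 26 Prdm16 cKO nuclei and 34 of the other 50 flox control nuclei. Abcc9, also on the pericyte side of the gate, reaches 20 UMIs in 1 nucleus of the middle block.

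Within the 76 nuclei several genes were found in only some. Agtr1b and Cdh6 were each found in 26 of them. Nox4, an oxidase that makes hydrogen peroxide, was found in 28 of all 86 nuclei with up to 49 UMIs in 1, with 119 UMIs in the Prdm16 cKO library and 169 in the flox control library. Shallow nuclei miss genes at these levels, so absence from a nucleus is not absence of the RNA. Over the list of visceral muscle genes, 26 nuclei had 3 or more UMIs (30.2%, 20.8 to 41.1%). Of these, 5 were of the Prdm16 cKO library and 21 of the flox control library, and 16 of the 26 had under 3 Chrm2 UMIs. Each of the 16 held at least 4162 UMIs. A Prdm16 cKO nucleus among them had 4 UMIs of the list and 0 of Actg2, Chrm2 and Pcp4. The share of pericyte or other nuclei that reach 3 UMIs is not given, so 30.2% is not a share of gut-type muscle. Of 11 genes of modulated or dividing muscle, 3 were measured against pericytes, with a median log2 ratio of 1.52. Fn1 (fibronectin) had 47 UMIs in Prdm16 cKO and 99 in flox control smooth muscle nuclei, against 19 and 22 in pericyte nuclei, and Tnfrsf11b (osteoprotegerin) had 5 and 11 in smooth muscle nuclei against 4 and 3 in pericyte nuclei, both at least 2 times higher over the pooled libraries. Vcam1, an adhesion molecule, had 3 UMIs in smooth muscle and 19 in pericyte nuclei. With either library left out, 1 gene of this list was 2 times higher. Mki67, Cdk1 and Spp1 had 0 UMIs in smooth muscle nuclei, and Top2a had 1.

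Genes of other cells were present too. Adipocyte markers, all 10 of 10 found, were at 59.0 per 10000 UMIs in smooth muscle nuclei (80.9 in the Prdm16 cKO library and 53.1 in the flox control library), against 91.4 in pericyte nuclei, 109 in lymphocyte nuclei and 299.6 in the 25% of nuclei richest in them. The 4 gate genes together were at 71.1 per 10000 UMIs, so the adipocyte level came close to it, and in the Prdm16 cKO library, with gate genes at 52.9, exceeded it. Across the 86 nuclei the adipocyte level was lower where the muscle level was higher (Pearson r = -0.50, a description over nuclei of 2 libraries that share their totals). T cell and B cell markers were at 2.43 and 2.07 per 10000 UMIs in smooth muscle nuclei, against 22.3 and 16.3 in lymphocyte nuclei. Of the 136 T cell UMIs, 47 and 45 lay in 2 flox control nuclei. The nucleus with 45 was 1 of the 10 with Chrm2 and had 183 adipocyte UMIs per 10000. Mesothelial markers had 109 UMIs in smooth muscle nuclei, of which 48 lay in 1 flox control nucleus and at most 3 in any other. The nucleus with 48 had 12 Acta2 and 1 Myh11 UMIs and 0 of Lmod1, Myocd and Dmd. Macrophage markers, with 5 of 6 found and C1qb at 0, were at 4.51 per 10000 UMIs in smooth muscle nuclei (252 UMIs in 66 nuclei), 1.89 in pericyte nuclei and 3.42 in all other nuclei. Of the 252 UMIs, 234 were from Mertk, a receptor for dying cells. Fibroblast markers were at 7.49 in smooth muscle and 15.4 in pericyte nuclei. Vascular endothelial markers were at 1.32 in smooth muscle and 2.35 in pericyte nuclei, but at 2.20 and 1.71 in the Prdm16 cKO library alone. Lymphatic endothelial markers were at 3.56 in smooth muscle and 0.428 in pericyte nuclei of the Prdm16 cKO library. In the flox control library they were at 0.431 and 1.64. A Prdm16 cKO nucleus with 4 muscle marker UMIs had 16 lymphatic endothelial UMIs, or 53.3 per 10000. The part of this RNA in the levels above was not tested for other cell types, and with an adipocyte profile subtracted 226 genes were higher than in pericytes and 205 lower. Striated muscle genes were at 0.107 per 10000 UMIs, with Myh2, Myh4, Actc1, Myh6 and Tnnt3 at 0. Intestinal epithelial genes had 10 UMIs over all smooth muscle nuclei, with Epcam at 0, and 0 UMIs in the 10 Chrm2 nuclei. In the whole study, 19 nuclei of the Prdm16 cKO library (0.241%, 0.145 to 0.377%) and 105 of the flox control library (0.904%, 0.740 to 1.09%) passed an intestinal epithelial gate. Whether the libraries held unequal amounts of gut tissue was not tested.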

How the data were processed

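Single-nucleus RNA was measured in 1 Prdm16 cKO and 1 flox control library of mesenteric perivascular fat. The deposited matrices hold the authors' raw UMI counts per gene and barcode, from Cell Ranger 6.1.2 on mm10 per the submitters' processing notes. No source used here gives the annotation release, the counting of introns or the treatment of strand. Of 8086 deposited Prdm16 cKO and 12060 flox control barcodes, 7869 and 11611 with 500 or more UMIs and under 5% mitochondrial UMIs were kept, holding 70165738 and 107047268 UMIs. The members, the gene lists and the named genes were chosen with earlier results of these data known.

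UMIs were summed per class and library in Python 3.11.15 (numpy 2.4.6, scipy 1.17.1, pandas 2.3.3), and CPM were computed from these sums. With 1 library per genotype no test was run. Levels carry exact Poisson intervals, ratios exact conditional binomial intervals and shares Clopper-Pearson intervals, all at 95%. Counts under 3 on the low side of a ratio were set to 3, both over the pooled group and within each library. Lymphocyte, endothelial and adipocyte-rich classes came from marker UMIs. Genes named against pericytes were the 15 highest and 10 lowest called ratios, and against all other nuclei the 15 highest, with 30 or more UMIs, a UMI in at least 10% of nuclei and a symbol that is not a Gm or Rik name. Others named are members of the 12 lists, gate genes, or genes chosen after their values were seen, namely those of the Chrm2 split and Nox4. Of the listed symbols, 3 were not found in the files under that name. Doublets were not removed. The automatic threshold of Scrublet (scanpy 1.11.5) marked 0% of Prdm16 cKO and 0.00861% of flox control nuclei and so did not work here. An alternative removed the nuclei with the highest scores at 0.8% per 1000 nuclei. Other alternatives changed the gate limits, the averaging, the depth (1000 UMIs per nucleus), the minimum count, the call, the free RNA, the scaling (TMM, edgeR 4.0.16, R 4.3.3) and the libraries used. The calling code was checked on simulated counts, where it found nearly all strongly raised genes but missed a good part of the equally strongly lowered ones. The number of genes called lower is therefore not comparable with the number called higher. The counts of 1 gene list and the values of 1 of the listed genes are not reported here.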

Additional observations from a re-analysis of the deposited data

Results flagged for a closer look

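Chrm3, the muscarinic acetylcholine receptor that drives contraction of gut and other visceral muscle, went opposite ways in the libraries. It had 57 UMIs in smooth muscle nuclei. In the Prdm16 cKO library it had 6 UMIs in smooth muscle and 35 in pericyte nuclei, and in the flox control library 51 in smooth muscle and 17 in pericyte nuclei. Of the 57 UMIs, 39 were in the 10 flox control nuclei with 3 or more Chrm2 UMIs and 18 in the other 76 nuclei. The higher flox control level in smooth muscle than in pericyte nuclei thus rested on these 10 nuclei. Over all genes, smooth muscle nuclei held 118119 UMIs in the Prdm16 cKO library and 440975 in the flox control library, or 292492 there without the 10 nuclei. Pericyte nuclei held 327085 and 372046. With 1 library per genotype, the difference between the libraries was not tested.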

How the results depend on the processing

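No paired analysis was possible because each genotype had 1 library and no test was run. Across 14 alternative settings, 52 of 70 values of the 7 main results stayed close to those reported, 18 moved and 0 turned direction. Requiring 0 UMIs of Flt1, Mrc1 and F13a1 left 40 nuclei, 0.191% of the Prdm16 cKO and 0.215% of the flox control library, with 9 nuclei at 3 or more visceral UMIs and 50 genes lower than in pericytes. Thinning to 1000 UMIs gave 74 higher, 42 lower and 347 against all other nuclei, as fewer UMIs remain. The pooled ratio alone gave 220 lower and 1213 against all other nuclei, and adipocyte subtraction 205 lower. Without the Chrm2 nuclei, an alternative chosen after seeing the data, 16 nuclei had visceral UMIs. Leaving out 1 library gave 26 to 60 nuclei, 5 to 21 with visceral UMIs, 119 to 278 genes higher and 89 to 182 lower than in pericytes, and 1003 to 1159 against all other nuclei. Of 434 values for 31 named genes 80 moved, 27 of them under thinning, and of 168 for 12 gene lists 26 moved, none reversed. Other causes were not tested. Genes under 20 UMIs in 86 smooth muscle and 116 pericyte nuclei could not be compared, and the 26 Prdm16 cKO nuclei hold few UMIs, so lower levels there are poorly resolved.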
